A study of Mus musculus with 4 samples.

Results

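The circadian clock and output genes described here are Dbp, Per1, Per2, Per3, Nr1d1, Nr1d2, Ciart, Arntl, Tef and Bhlhe41. They were chosen by symbol, each symbol named 1 row of the count matrices, and they are 10 of the 32285 genes in the files. Their transcripts were counted in single cells of dissociated mouse retina at postnatal day 30, with 1 retina per mouse and 1 library per retina. The NLGF group held 1 female and 1 male mouse with an App knock-in allele, in which the endogenous App gene (amyloid precursor protein) carries a humanised and mutated amyloid beta sequence under its own promoter in every cell. The wild-type (WT) group also held 1 female and 1 male. The labels give no background strain, no litter and no time of day or lighting for the dissections. A level of a clock gene is therefore a snapshot at an unstated time, and a shift in the time of dissection cannot be told apart from a shift in level.

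In the mammalian clock, CLOCK and BMAL1 (the product of Arntl) pair up and bind E-box sequences to switch on their targets. The PER and CRY proteins accumulate and repress that pair, so the loop repeats about once a day. The nuclear receptors REV-ERB alpha and beta (Nr1d1 and Nr1d2), themselves E-box targets, repress Arntl, which therefore cycles against them. DBP and TEF are output factors that bind D-box sequences, Ciart encodes the repressor CHRONO, and Bhlhe41 encodes DEC2, another repressor at E-boxes. Mouse retina keeps its own clock, which times dopamine release, photoreceptor coupling and melatonin synthesis.

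Promoter sequence is shown for the gene that passed the NLGF test (Dbp), for the members whose start regions hold repeated clock motifs (Ciart and Per3), and for Bhlhe41 as an example with a single E-box. RefSeq windows of 250 bases before the transcription start (GRCm38.p6, written 5′ to 3′ on the gene's strand) were found for 9 of the 10 members. They were searched on both strands for the E-box CACGTG, the D-box TTATGTAA and the half-site AGGTCA of the receptors that bind ROR elements, and matches are in capitals.
Ciart, chr3:95882229-95882478, minus strand: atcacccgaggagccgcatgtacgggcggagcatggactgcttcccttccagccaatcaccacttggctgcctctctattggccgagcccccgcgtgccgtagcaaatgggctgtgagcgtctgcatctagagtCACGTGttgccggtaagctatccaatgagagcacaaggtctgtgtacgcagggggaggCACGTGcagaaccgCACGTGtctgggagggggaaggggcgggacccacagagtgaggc
Bhlhe41, chr6:145865421-145865670, minus strand: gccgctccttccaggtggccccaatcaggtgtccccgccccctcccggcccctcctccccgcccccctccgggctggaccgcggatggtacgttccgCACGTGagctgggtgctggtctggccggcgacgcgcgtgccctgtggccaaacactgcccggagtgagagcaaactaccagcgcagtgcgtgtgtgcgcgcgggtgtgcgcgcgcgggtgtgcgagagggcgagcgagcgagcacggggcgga
Per3, chr4:151044666-151044915, minus strand: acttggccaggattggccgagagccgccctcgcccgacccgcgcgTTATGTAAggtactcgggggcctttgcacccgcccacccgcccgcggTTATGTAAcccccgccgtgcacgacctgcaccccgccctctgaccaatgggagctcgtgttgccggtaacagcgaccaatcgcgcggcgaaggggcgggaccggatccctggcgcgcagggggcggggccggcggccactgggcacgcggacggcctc
Dbp, chr7:45704997-45705246, plus strand: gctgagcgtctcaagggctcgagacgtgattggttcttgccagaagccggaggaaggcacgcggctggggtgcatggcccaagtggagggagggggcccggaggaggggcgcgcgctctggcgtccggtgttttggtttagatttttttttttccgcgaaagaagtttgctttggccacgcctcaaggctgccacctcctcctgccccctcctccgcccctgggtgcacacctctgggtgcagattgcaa

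The Ciart window held 3 E-boxes, 116, 58 and 44 bases before the start. Single E-boxes lay 153 bases before the Bhlhe41 start and 166 bases before 1 Per1 start. The Tef start sites had 1 each at 127 and 138 bases. Per3 was the member with D-boxes, 205 and 158 bases before its start. The half-site was present in that Per1 window and in the Nr1d2 window. The windows of Dbp, Nr1d1 and Arntl, and that of the other Per1 start, held none of these letters. Across 32851 mouse promoter windows of this length, 6.02% held the E-box, 0.819% the D-box and 14.0% the half-site.

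The NLGF libraries held 8060 and 9005 barcodes (female and male), against 9058 and 9068 in the WT libraries, with 19128388 to 23473093 UMIs (unique molecular identifiers) each. Pairs of libraries shared 17 to 34 cell barcodes. After filtering, 31559 cells in 19 clusters were sorted into classes by marker genes. Every marker of the Müller, cone, rod bipolar, cone bipolar, amacrine, endothelial and microglial lists was highest in its own class, and 6 of 7 rod markers were. Clusters of 739 and 585 cells stayed unnamed. A cluster of 520 cells met the ganglion cell rule through Nefl, Sncg and Nefm, but rod markers summed to 21939 to 24991 CPM in it and the ganglion cell gene Pou4f1 had 4.58 CPM, so it is called the Nefl cluster here. Class names rest on these markers alone, so that rods are rod-like cells, and so on. Levels are in CPM, that is UMIs of a gene per 1000000 UMIs of the class in a library after TMM scaling. As in any sum over cells, fewer expressing cells and less RNA per cell cannot be told apart.

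Dbp, Per3, Nr1d1, Tef and Ciart divided the retina into an inner and an outer part. Dbp was high in cone bipolar cells (574 ± 18.8 CPM, SD, n = 4 libraries), in rod bipolar cells (541 ± 15.1 CPM) and in Müller glia, which reach from the inner to the outer surface of the retina (491 ± 87.8 CPM), each overlapping with the next over libraries. Amacrine cells, the inhibitory interneurons, had 377 ± 19.7 CPM, below these in every library. Cones had 109 ± 13.8 CPM and rods 30.6 ± 1.77 CPM, below every inner class in every library. Endothelial cells (84.4 ± 28.6 CPM) overlapped with cones, and the Nefl cluster (49.9 ± 24.6 CPM) and microglia (16.4 ± 16.0 CPM) with rods.

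**Figure D1:**
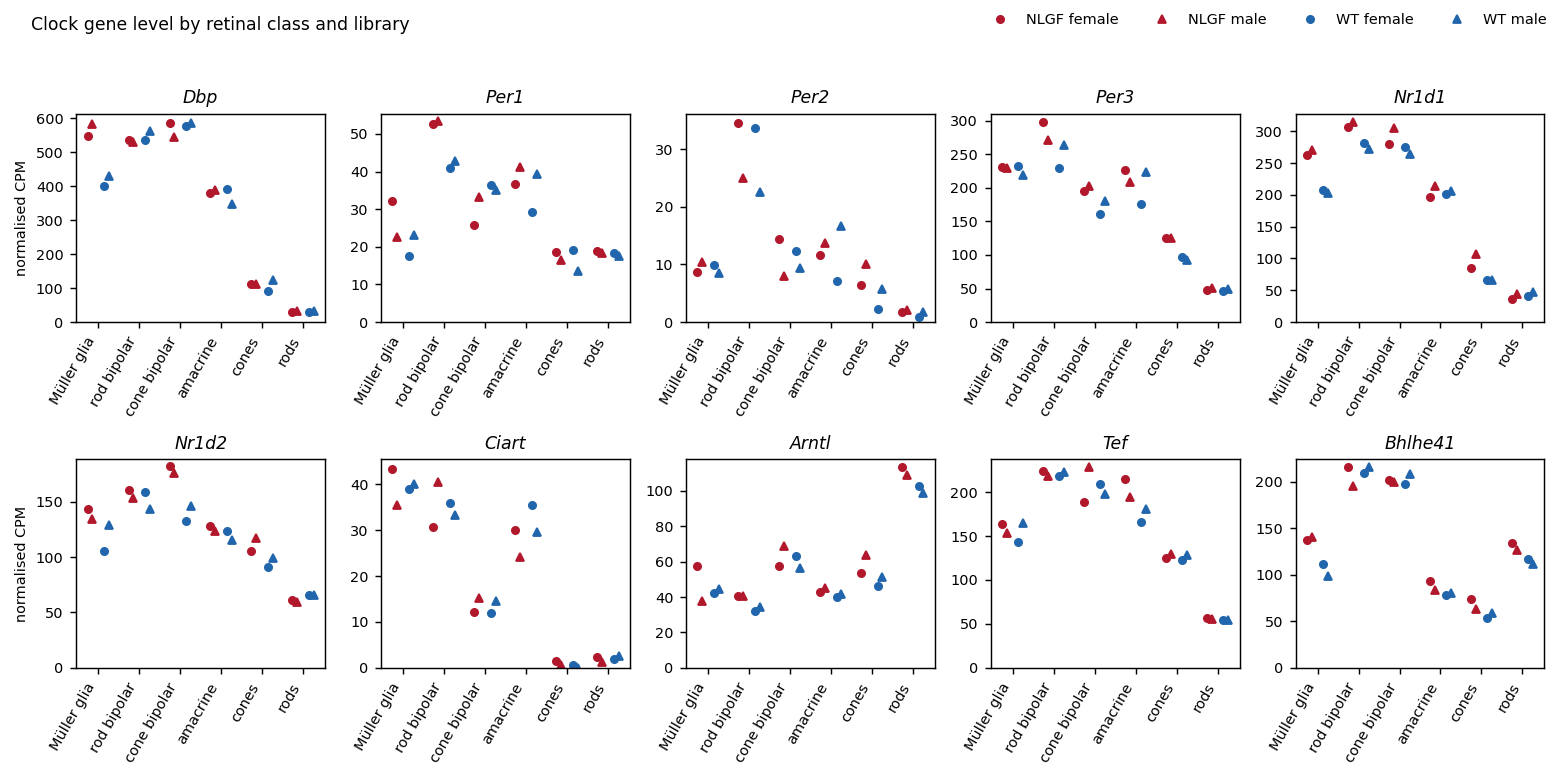
Normalised CPM of each member (vertical axes, linear from 0) in 6 retinal classes (horizontal axes), 1 point per library, red for NLGF and blue for WT, circles for females and triangles for males. Dbp averages 574 CPM in cone bipolar cells and 30.6 CPM in rods, whereas Arntl is highest in rods (106 CPM).

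Of the period genes, Per3 followed a similar order. Per3 had 266 ± 28.3 CPM in rod bipolar cells, 228 ± 6.03 CPM in Müller glia, 209 ± 23.0 CPM in amacrine cells and 185 ± 18.5 CPM in cone bipolar cells, each overlapping with the next. In cones it had 110.2 ± 17.3 CPM and in rods 48.8 ± 1.68 CPM. Per1, a period gene that light and hormones induce, spanned a narrower range. It had 47.4 ± 6.53 CPM in rod bipolar cells, 18.3 ± 0.493 CPM in rods and 16.9 ± 2.55 CPM in cones, and rods and cones overlapped. Müller glia had 23.9 ± 6.09 CPM of Per1, overlapping with both rods and cones. Per2 had 29.0 ± 6.07 CPM in rod bipolar cells, 12.3 ± 4.06 CPM in amacrine cells and 1.61 ± 0.503 CPM in rods. In cones Per2 had 6.15 ± 3.18 CPM, on 4 to 14 UMIs per library, overlapping with amacrine cells, cone bipolar cells and Müller glia.

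Nr1d1 was inner-retinal as well. Nr1d1 had 294 ± 19.4 CPM in rod bipolar cells, 281 ± 16.8 CPM in cone bipolar cells, 236 ± 35.9 CPM in Müller glia and 205 ± 7.04 CPM in amacrine cells, against 81.0 ± 19.4 CPM in cones and 42.1 ± 4.89 CPM in rods. These inner classes overlapped from 1 class to the next, and all lay above cones and rods. Nr1d2 was flatter, with 159 ± 23.7 CPM in cone bipolar cells, 154 ± 7.57 CPM in rod bipolar cells and 63.5 ± 3.21 CPM in rods. Its level in cones (103 ± 10.9 CPM) overlapped with amacrine cells and Müller glia, so Nr1d2 did not divide the inner from the outer retina. Tef had 221 ± 3.01 CPM in rod bipolar cells, 206 ± 17.3 CPM in cone bipolar cells and 55.2 ± 1.61 CPM in rods. Ciart was low in rods and cones, and Per2 in rods. Ciart had 39.4 ± 3.20 CPM in Müller glia, 35.1 ± 4.18 CPM in rod bipolar cells, 29.9 ± 4.62 CPM in amacrine cells and 13.5 ± 1.67 CPM in cone bipolar cells. In cones it had 2 and 1 UMIs in the NLGF libraries and 1 and 0 UMIs in the WT libraries, and in rods 2.02 ± 0.556 CPM. No Ciart or Per2 UMI was counted in microglia, which at the depth of these 80 cells allows up to 36.9 to 106 CPM per library (3 counts, counting error only).

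Arntl ran against this order in rods but not in cones, where its level overlapped with cone bipolar cells and Müller glia. It was highest in rods (106 ± 6.61 CPM), which overlapped with the Nefl cluster (97.2 ± 22.3 CPM) but lay in every library above cone bipolar cells (61.5 ± 5.66 CPM). Cones had 53.8 ± 7.45 CPM, Müller glia 45.5 ± 8.56 CPM, amacrine cells 42.3 ± 2.27 CPM and rod bipolar cells 37.0 ± 4.21 CPM, each overlapping with its neighbour. The ratio of Dbp to Arntl UMIs was 0.290 ± 0.0310 in rods and 2.05 ± 0.285 in cones. In the inner retina it was 14.8 ± 1.91 in rod bipolar cells, 9.49 to 15.4 over the 4 libraries in Müller glia, 9.41 ± 1.12 in cone bipolar cells and 8.94 ± 0.631 in amacrine cells. Bhlhe41 fell outside both patterns. Its level was 209 ± 9.78 CPM in rod bipolar cells, 202 ± 4.46 CPM in cone bipolar cells, 122 ± 9.95 CPM in rods and 122 ± 20.4 CPM in Müller glia, so rods and Müller glia overlapped, while amacrine cells had 84.1 ± 6.66 CPM and cones 62.5 ± 9.01 CPM. In endothelial cells it had 0 and 1 UMIs in the NLGF libraries and 0 and 1 UMIs in the WT libraries. Microglia had 168 ± 77.6 CPM of Bhlhe41.

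Within a class, the members separated clusters that differed in nuclear RNA. These clusters were picked after their values were seen and are described with no test. The Müller class held a cluster of 733 cells with a median of 9320 UMIs per cell and a cluster of 705 cells with a median of 808 UMIs. Malat1, a long noncoding RNA that stays in the nucleus, had 21110 ± 7865 CPM in the shallow cluster and 109385 ± 4645 CPM in the deep one. Per3 had 43.9 ± 3.19 CPM in the shallow cluster against 250.2 ± 10.4 CPM in the deep one, a ratio of 0.176 ± 0.0186 over the 4 libraries. Ciart had 4 UMIs in all in the shallow cluster and 292 in the deep one (ratio 0.106 ± 0.0908). Nr1d1, Nr1d2 and Tef had ratios of 0.448 ± 0.127, 0.484 ± 0.118 and 0.559 ± 0.147. Dbp was nearly level, with 452 ± 58.9 CPM in the shallow cluster and 497 ± 101 CPM in the deep one (ratio 0.924 ± 0.115), as was Arntl (1.12 ± 0.306).

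A cluster of 5568 rods showed the same order for Per3. Unlike the shallow Müller cluster, it was the deepest of its class, with a median of 2249 UMIs per cell against 704 to 1427. There Malat1 had 3615 ± 503 CPM, against 77385 to 131324 CPM in the other 4 rod clusters. Per3 had 8.16 ± 1.47 CPM in it and 77.5 ± 8.57 CPM in the other rods (ratio 0.106 ± 0.0189, 0.0893 to 0.132 over the libraries). Arntl had 59.5 ± 4.21 CPM against 138 ± 5.63 CPM (ratio 0.430 ± 0.0280), and Bhlhe41 67.5 ± 8.95 CPM against 161 ± 6.95 CPM (0.419 ± 0.0457). Nr1d1 and Dbp had ratios of 0.607 ± 0.0646 and 0.683 ± 0.177. Per3 thus had the lowest ratio of the 10 members in rods, and the lowest but for Ciart in Müller glia. Mitochondrial RNA was 9.29% of UMIs in that rod cluster and 2.85% to 4.97% in the others, and 11.5% in the shallow Müller cluster against 6.49% in the deep one. The part of nuclear RNA, depth or cell damage in these ratios was not tested.

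**Figure D2:**
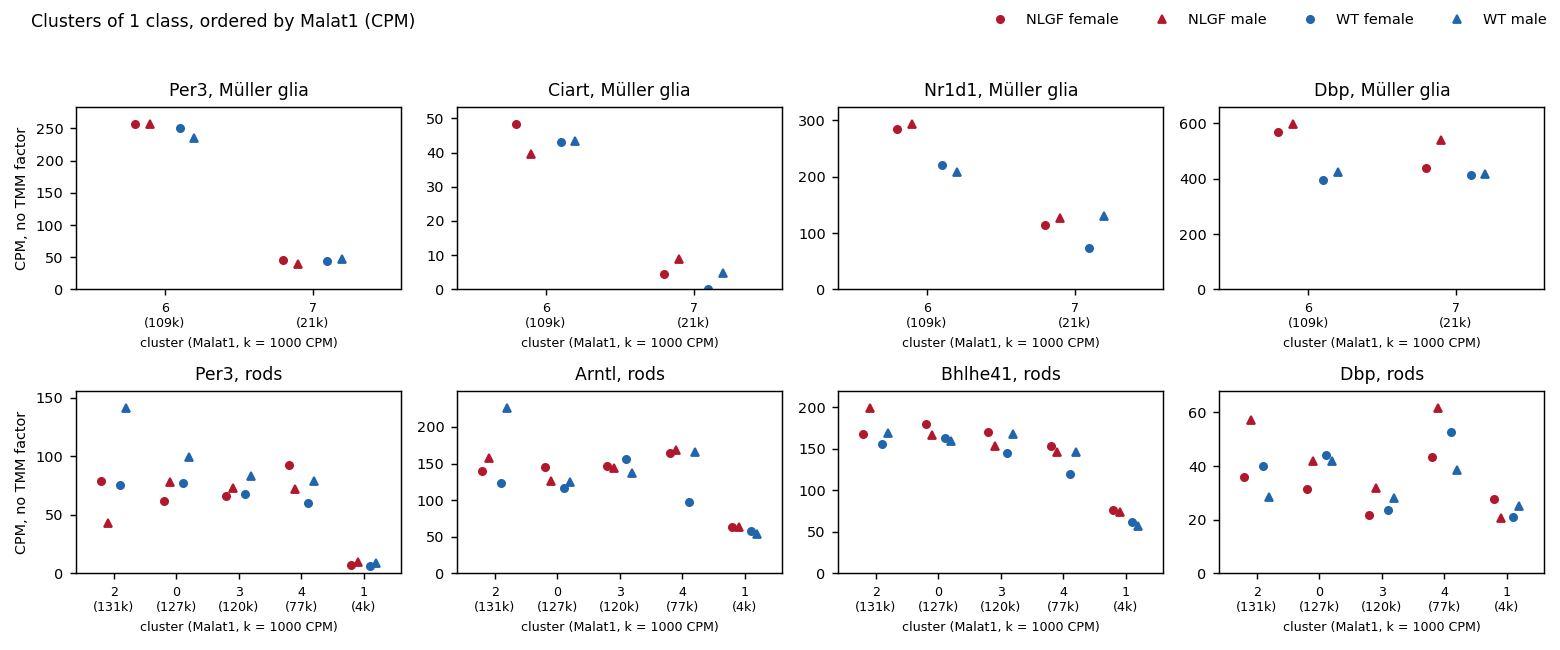
CPM without TMM scaling (vertical axes, linear from 0) of 4 members in each Müller cluster (top) and each rod cluster (bottom), ordered from high to low Malat1 with its mean under each cluster, 1 point per library, red for NLGF and blue for WT. Per3 averages 43.9 CPM in the Malat1-poor Müller cluster and 8.16 CPM in the Malat1-poor rod cluster, and Dbp 452 and 23.7 CPM.

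In Müller glia, 1 of the 10 members differed between the genotypes. Dbp had 548 and 582 CPM in the NLGF female and male, against 402 and 431 CPM in the WT female and male. Both NLGF libraries lay above both WT libraries, by a log2 difference of 0.45 between the females and 0.43 between the males. The fitted difference, NLGF minus WT, was 0.44 ± 0.10 (SE, n = 2 libraries per genotype, edgeR quasi-likelihood test, adjusted p = 0.0413), a ratio of 1.36. Over all 11143 genes tested in Müller glia 0.996% were called in either direction and 0.592% as higher. The call was lost with DESeq2 (adjusted p = 0.0794), with a mitochondrial limit of 10% (0.058), in counts thinned to the smallest library (0.0598), and without the NLGF female (0.148) or the NLGF male (0.385). It held in cells with at least 2000 UMIs (0.46, edgeR adjusted p = 0.0223). Each genotype held 1 female and 1 male, and with sex as a block 3 members were called, namely Dbp (edgeR adjusted p = 0.00458), Nr1d1 (0.0235) and Bhlhe41 (0.0442). That fit left 1 residual degree of freedom. The 0.996% above belongs to the main fit, and the share of all genes called with sex as a block is not given here.

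**Figure D3:**
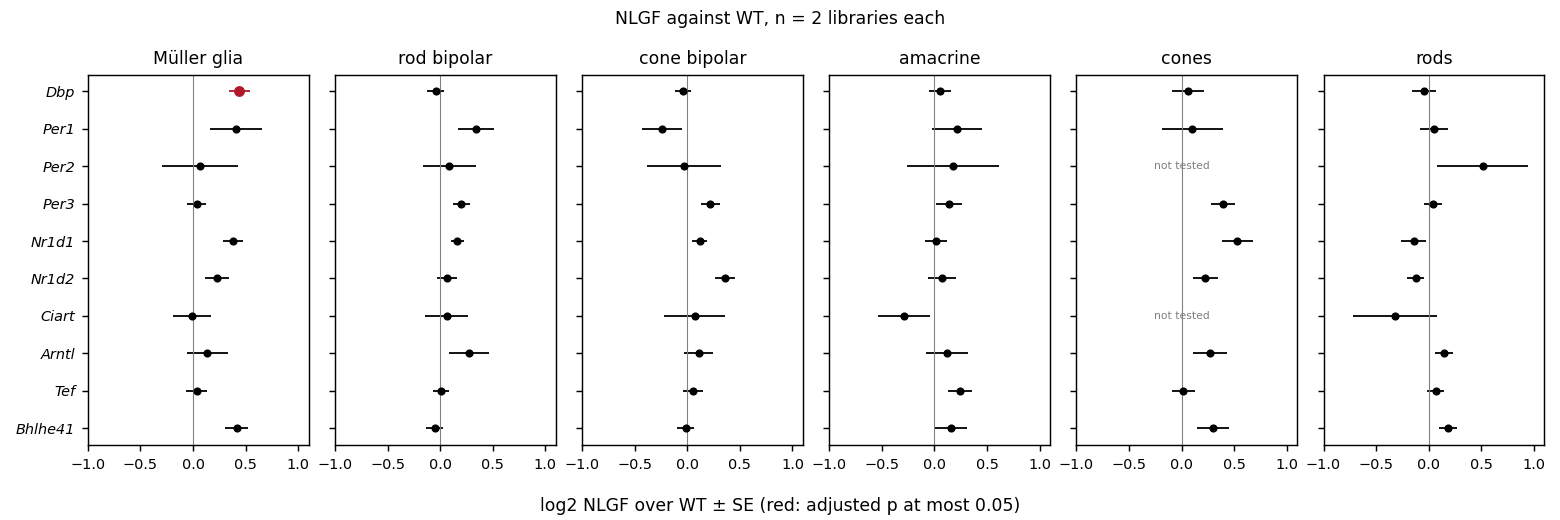
Log2 fold change of NLGF over WT (horizontal axes) for each member in 6 classes, with bars of 1 SE from edgeR and n = 2 libraries per genotype. The red point marks the member past an adjusted p of 0.05, Dbp in Müller glia at 0.44 ± 0.10, and Per2 and Ciart had too few counts to be tested in cones.

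The REV-ERB gene Nr1d1 came next in Müller glia. Its levels were 263 and 271 CPM in the NLGF female and male, against 208 and 203 CPM in the WT female and male, so the genotypes did not overlap. The log2 fold change was 0.38 ± 0.09, short of the threshold (edgeR adjusted p = 0.0633). Bhlhe41 had 138 and 141 CPM in the NLGF libraries, against 111 and 98.6 CPM in the WT libraries (0.41 ± 0.11, edgeR adjusted p = 0.0848). Nr1d2 had 143 and 134 CPM, against 105 and 129 CPM (0.23 ± 0.11, edgeR adjusted p = 0.476). The other members had no such separation, and the share of all tested genes with it was not counted. Per3 had 232 and 229.6 CPM in NLGF Müller glia, against 232 and 219 CPM in WT (log2 0.03 ± 0.09), Tef had 0.03 ± 0.10 and Ciart −0.01 ± 0.18. Arntl had 57.7 and 37.9 CPM, against 42.0 and 44.6 CPM (0.14 ± 0.19), with the WT values between the NLGF ones, and Per1 had 0.40 ± 0.25 and Per2 0.07 ± 0.36. The median log2 value over the 10 members was 0.18 and over all tested genes 0.0034.

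In the deep Müller cluster Dbp had 567 and 599 CPM in NLGF without TMM scaling, against 396 and 424 CPM in WT, and Nr1d1 had 285 and 294 CPM, against 221 and 208 CPM. In the shallow cluster Dbp had 440.3 and 538 CPM in NLGF, against 413 and 415 CPM in WT, and Nr1d1 had 113 and 127 CPM, against 73.7 and 131 CPM, on 10 to 29 UMIs per library. Dbp thus did not overlap between the genotypes in either cluster, whereas Nr1d1 overlapped in the shallow one. Within the Müller class, rod markers summed to 1842 and 1787 CPM in the NLGF libraries, against 2522 and 1829 CPM in the WT libraries. Astrocyte markers summed to 249.8 and 359.6 CPM in the NLGF libraries, against 825 and 218 CPM in the WT libraries, with Pax2 at 0 to 6.05 CPM, and the part of such cells in the result was not tested. Müller markers were level, at 37001 and 37638 CPM in NLGF and 37049 and 36600.5 CPM in WT.

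In no other class was a member called. The filter on low counts left 10 members in rods and in rod bipolar, cone bipolar and amacrine cells, 8 in cones, 5 in endothelial cells, 2 in the Nefl cluster and 1 in microglia. The background there was 0.109% of 11048 genes in cone bipolar cells, 0.00947% in amacrine cells, 0.096% in endothelial cells, 0.00806% in rods and 0.0309% over all cells. It was 0% of 9304 genes in rod bipolar cells, 0% of 9409 in cones, 0% of 879 in microglia and 0% of 1530 in the Nefl cluster, with 570, 527, 82 and 89 genes at an unadjusted p under 0.05 with edgeR. DESeq2 also called 0 members in each class.

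Outside Müller glia the smallest p-value of a member was that of Nr1d2 in cone bipolar cells. It had 182 and 176 CPM in NLGF, against 133 and 146 CPM in WT (log2 0.36 ± 0.09, unadjusted p = 0.00105, edgeR adjusted p = 0.252), and it passed without the WT male (adjusted p = 0.0305). Per3 had 196 and 203 CPM in NLGF cone bipolar cells, against 161 and 181 CPM in WT ones (0.22 ± 0.09, edgeR adjusted p = 0.671). For both genes the genotypes did not overlap, an order that was not counted over all tested genes.

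In cones Nr1d1 and Per3 had the smallest p-values. Nr1d1 had 84.5 and 107 CPM in NLGF cones, against 66.4 and 66.1 CPM in WT cones (log2 0.53 ± 0.15, unadjusted p = 0.0047, edgeR adjusted p = 0.878). Per3 had 125 and 125 CPM, against 97.6 and 93.0 CPM (0.39 ± 0.11, unadjusted p = 0.00601, edgeR adjusted p = 0.878). For both genes the NLGF cones lay above the WT cones, without passing over all genes. The share of all tested genes with such an order was not counted. Of the 8 members tested in cones, 8 had values above 0, beside 49.5% of all tested genes. Rod markers summed to 11502 and 2175 CPM in the NLGF cones, against 5983 and 1761 CPM in the WT cones, and their part in these values was not tested.

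In rod bipolar cells Per3 had 298 and 272 CPM in NLGF, against 229 and 264 CPM in WT (0.20 ± 0.08, edgeR adjusted p = 0.771). Nr1d1 had 306 and 314 CPM in NLGF rod bipolar cells, against 282 and 273 CPM in WT ones (0.16 ± 0.06, edgeR adjusted p = 0.771). Amacrine cells had values from −0.29 to 0.24 over the 10 members with none at an unadjusted p under 0.05. Dbp itself had −0.04 ± 0.08 in rod bipolar, −0.04 ± 0.07 in cone bipolar and 0.05 ± 0.10 in amacrine cells. In the Nefl cluster Per3 had 67.2 and 107 CPM in NLGF, against 246 and 153 CPM in WT (−1.07 ± 0.43, edgeR adjusted p = 0.774), on 6 to 22 UMIs per library. Dbp had 0.70 ± 0.37 in endothelial cells (edgeR adjusted p = 0.968) and Bhlhe41 −0.74 ± 0.60 in microglia (0.767).

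In rods Bhlhe41, Arntl and Tef had both NLGF libraries above both WT libraries, and Nr1d2 had both below. How many of all tested genes had such an order was not counted. Bhlhe41 had 134 and 126 CPM in NLGF rods, against 117 and 111 CPM in WT rods (0.19 ± 0.09, edgeR adjusted p = 0.611). Arntl had 114 and 109 CPM in NLGF rods, against 102 and 98.7 CPM in WT rods (0.14 ± 0.08, edgeR adjusted p = 0.678). Nr1d2 had 61.6 and 59.9 CPM in NLGF rods, against 66.1 and 66.3 CPM in WT rods (−0.12 ± 0.08, edgeR adjusted p = 0.706). The Bhlhe41 and Arntl values were smaller without the Malat1-poor rod cluster, at 0.06 for Bhlhe41 and 0.05 for Arntl. That cluster took 17.5% and 19.2% of rods in the NLGF libraries, against 20.5% and 30.2% in the WT libraries, and Per3 in rods had 0.04 with it and −0.17 without it. Over all cells together, Arntl (0.15 ± 0.06, unadjusted p = 0.0373) and Per3 (0.15 ± 0.06, unadjusted p = 0.0486) had the smallest p-values with edgeR, at adjusted p of 0.464 and 0.492.

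Whether the NLGF effect in 1 class differed from that in rods was tested with library as a block. For Nr1d1 the effect in Müller glia exceeded that in rods by 0.53 ± 0.14 (log2, edgeR adjusted p = 0.0362), where rods had 35.7 and 44.3 CPM in NLGF, against 41.3 and 47.1 CPM in WT. This was the 1 member called, beside 0.323% of 13611 genes. The call was lost without the NLGF female (adjusted p = 0.925), the NLGF male (0.141) or the WT male (0.353). For Dbp the difference was 0.48 ± 0.14 (edgeR adjusted p = 0.125). Nr1d2 had 0.35 ± 0.14 (edgeR adjusted p = 0.453) and Bhlhe41 0.22 ± 0.14 (0.739). With edgeR 0 members were called against rods in rod bipolar cells (beside 0.00795% of genes), cone bipolar cells (0.0452%), amacrine cells (0.0437%), endothelial cells (0.0155%), microglia (0.0339%), cones (0%, with 497 genes at an unadjusted p under 0.05) and the Nefl cluster (0%, with 472 such genes). Among these, Nr1d1 in cones had 0.67 ± 0.18 (unadjusted p = 0.00119, adjusted p = 0.977) and Nr1d2 in cone bipolar cells 0.48 ± 0.14 (unadjusted p = 0.000741, adjusted p = 0.413). When all tested classes were compared at once, 0 members were called beside 0.868% of 14636 genes, with unadjusted edgeR p-values of 0.0135 for Dbp and 0.049 for Nr1d1. Over the 6 neuronal and Müller classes the count was also 0, with 0.00274 for Nr1d1 and 0.00598 for Dbp, and 0.312% of genes called.

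As background, a shift in clock phase can move Dbp and the Per and Nr1d genes against Arntl, by an amount and direction that depend on the time of day. The labels do not give that time, and a phase shift was not tested. Coherence between classes was described by a phase index, taken as the mean deviation of the other members from the class mean minus that of Arntl (log2, members with at least 20 UMIs), as a description with no test. The difference in the index, NLGF minus WT, was 0.11 in Müller glia and 0.05 in cones. It was −0.18 in rod bipolar cells, −0.12 in rods, −0.03 in cone bipolar cells and −0.02 in amacrine cells. Leaving out 1 library turned the sign in 4 of these classes. Without the NLGF male the index difference was −0.15 in Müller glia, 0.092 in cone bipolar cells and 0.036 in amacrine cells, and without the NLGF female it was −0.029 in cones. With Arntl, Clock and Npas2 averaged it was −0.098 in Müller glia. The SDs within genotypes were 0.27 in Müller glia, 0.08 in cones, 0.07 in rod bipolar cells, 0.10 in rods, 0.15 in cone bipolar cells and 0.08 in amacrine cells, so rod bipolar cells and rods were the classes whose difference exceeded the SD. In rods it was −0.016 without the WT male. Arntl and the mean of the other members had differences of the same sign in each of the 6 classes. The mean of the other members was higher in NLGF by 0.31 in cones, 0.22 in Müller glia, 0.09 in rod bipolar, 0.09 in amacrine, 0.05 in cone bipolar cells and 0.03 in rods. Arntl was higher by 0.26, 0.11, 0.27, 0.11, 0.07 and 0.14 in the same classes and order. The cone mean included Per2, which had 4 to 14 UMIs per library and was not tested there. Its deviations in cones were 0.17 and 0.72 in the NLGF libraries, against −0.93 and 0.04 in the WT libraries.

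**Figure D4:**
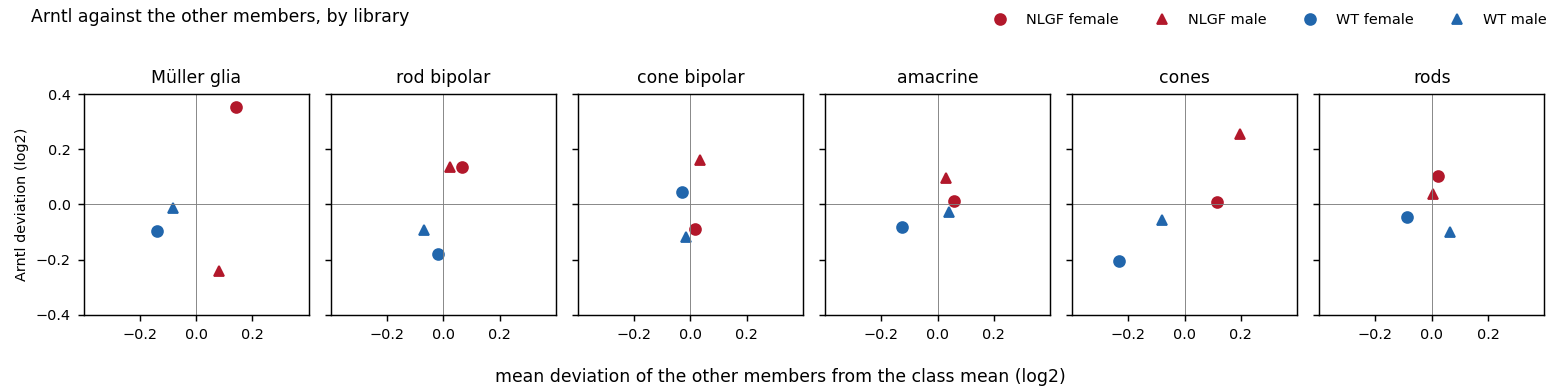
Deviation of Arntl (vertical axes) against the mean deviation of the other members (horizontal axes) from their class means over 4 libraries, both in log2, 1 panel per class, red for NLGF and blue for WT. In cones and rod bipolar cells both NLGF libraries lie above and to the right of both WT libraries, with Arntl differences of 0.26 and 0.27, whereas in Müller glia the WT libraries lie between the NLGF ones on the Arntl axis.

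The partners of the clock loop gave no calls. In Müller glia 11 of 16 partner genes were tested, 0 were called with edgeR, and 2 had an unadjusted p under 0.05, both with values above 0. These were Cry2, a cryptochrome that represses CLOCK and BMAL1, which averaged 135 ± 7.97 CPM in NLGF and 104 ± 5.74 CPM in WT (log2 0.37 ± 0.11, edgeR adjusted p = 0.139), and Hlf, which belongs to the DBP and TEF family, with 459.7 and 485 CPM, against 366 and 407 CPM (0.29 ± 0.10, edgeR adjusted p = 0.261). The partner list's median in Müller glia was 0.12. Clock, the partner of BMAL1, had 0.06 ± 0.14. Nfil3, a repressor at the same D-boxes as DBP, had −0.99 ± 0.41 in cones and 0.55 ± 0.23 in rod bipolar cells, and Bhlhe40, which encodes DEC1, had 0.36 ± 0.14 in cone bipolar cells (edgeR adjusted p = 0.878, 0.771 and 0.627). Rora, an activator of Arntl, had −0.80 ± 0.37 in endothelial cells (edgeR adjusted p = 0.953).

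Among 12 clock outputs, 8 were tested in Müller glia and 1 rose. Cdkn1a, the cell cycle inhibitor p21, had 45.7 and 33.1 CPM in NLGF, against 3.05 and 7.01 CPM in WT (2.85 ± 0.32, edgeR adjusted p = 4.61e-05), and it was called with each library left out. Klf9, a factor that responds to glucocorticoids and thyroid hormone, had 328 and 311 CPM in NLGF, against 247 and 239.8 CPM in WT (0.39 ± 0.10, edgeR adjusted p = 0.0604). No other class had a called output. Cdkn1a had 0.81 ± 0.16 over all cells (edgeR adjusted p = 0.288), and Usp2, a deubiquitinase gene, −0.73 ± 0.30 in the Nefl cluster (0.774). The photoreceptor gene Pdc had values of −0.39 in Müller glia, −0.29 in amacrine cells, 1.31 in endothelial cells and 1.47 in microglia, each at an unadjusted edgeR p under 0.05 and uncalled.

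The glucocorticoid and immediate early genes were set beside the members because Per1 and Klf9 also respond to hormones and stimulation. Of 7 tested glucocorticoid response genes in Müller glia 0 were called with edgeR, the median was −0.01, and Klf9 was the 1 gene at an unadjusted p under 0.05. Of 9 immediate early genes 1 rose there, Atf3, which also belongs to the integrated stress response (8.65 and 7.10 CPM in NLGF, against 0.764 and 1.00 CPM in WT, 3.03 ± 0.68, edgeR adjusted p = 0.0362). The Atf3 call was lost with DESeq2 (adjusted p = 1.00) and without the NLGF female (0.366), the NLGF male (0.193), the WT female (0.0609) or the WT male (0.084). Junb, a subunit of AP-1, had 227 and 168 CPM in NLGF Müller glia, against 234 and 421 CPM in WT (−0.75 ± 0.18, edgeR adjusted p = 0.0617), and Btg2, an antiproliferative gene, −0.29 ± 0.13 (0.404). The list's median was −0.29, and 2 of its 9 genes were above 0. In rods Sgk1 had 0.31 ± 0.10 and Ddit4 0.28 ± 0.12, both glucocorticoid targets (edgeR adjusted p = 0.565 and 0.587). The part of such stimulation in the member values was not tested.

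The genes whose level followed Dbp most closely across libraries were sought among 3794 genes with at least 20 CPM in 7 classes, as Pearson's r of class-centred log2 CPM over 28 class sums from 4 libraries. The sums of 1 library share its depth and handling, so r is a description. Atp6v1a, a subunit of the vacuolar proton pump, led with 0.81, followed by Ube2e3, H2afz, Msl1, Mef2d, Tmed4 and Ppp4r2 (0.79 to 0.75). Cnot6l, Pnisr, Pnrc1 and Aktip were lowest (−0.79 to −0.82). Nr1d1 ranked 178th with 0.48, and Per3, Tef, Arntl and Nr1d2 ranked between 959th and 2811th. Without endothelial cells the first 8 genes were Ddit3, Ilrun, Fam114a2, Irak1bp1, Eif5, Aars, Zfp729a and Phyhipl, of which 0 were shared with the first list. There Bhlhe41 ranked 66th (0.58), Nr1d1 158th (0.47) and Nr1d2 217th (0.44) of 4164 genes.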

How the data were processed

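Single-cell suspensions of 4 retinas were run on a 10x Chromium controller, per the labels' protocols. Raw UMI counts were deposited as a matrix for each library. The file headers name Cell Ranger 6.1.1, and the submitters' processing notes Cell Ranger 3.1.0, STAR and mm10. The treatment of intronic reads is not stated in these sources. The lowest barcode total was 500 UMIs.

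Cells needed 300 genes or more and no more than 20% mitochondrial UMIs (33329 of 35191 barcodes). The automatic Scrublet threshold marked 2 cells, so cells scoring above the cut for the top 6% of each library were removed (401 to 502 cells per library, 1770 in all, with scores tied at the cut kept). Clustering used 2000 variable genes, among them 0 members, 30 principal components, 20 neighbours and Leiden resolution 1 (scanpy 1.11.5, leidenalg 0.10.2). Clusters were named by the marker list with the highest mean z-score, or by a list that put more of its markers in that cluster's top 10, of lists with at least 3 markers detected. A mean z-score of at least 0.8 was required where no marker was among the top 10 genes. Clusters stayed unnamed where markers of another class among the top 10 genes were at least 0.5 times their own, a limit set after the data were seen.

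Counts were summed per library and class and tested with edgeR 4.0.16 (quasi-likelihood, TMM, filterByExpr, genotype alone, Benjamini-Hochberg adjustment over all genes tested, threshold 0.05). DESeq2 1.42.0 was an alternative. The SE of a log2 fold change is its size over the square root of F. With 2 libraries per genotype, each 1 animal, p-values rest on the spread between these libraries, which edgeR moderates over all tested genes. That spread holds differences of animal, sex and library preparation together. The test was checked on simulated data. Depth per class and library ran from 28230 UMIs (microglia) to 9172834 UMIs (rods).

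Named genes were all 10 members, the partner and output genes past the threshold or, otherwise, up to 4 per list and class with the smallest unadjusted p under 0.05, and the 8 genes most and 4 genes least like Dbp. Of the genes this rule names, 2 are not reported here. The glucocorticoid and immediate early genes, and Clock, were named outside this rule after their values were seen. The members and lists were chosen with earlier results of these data known. Sequences and their positions are from RefSeq on GRCm38.p6.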

Additional observations from a re-analysis of the deposited data

Results flagged for a closer look

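The NLGF effect differed between a class and rods for 5 of the listed genes, by the interaction test with library as a block. Nr1d1 was the 1 member among them, with an effect in Müller glia above that in rods by 0.53 ± 0.14 (log2, SE, edgeR adjusted p = 0.0362). Junb was −1.04 ± 0.15 in Müller glia relative to rods (edgeR adjusted p = 5.67e-08) and Btg2 −0.61 ± 0.12 (0.000637), both immediate early genes. The Junb call was lost without the WT male (−0.66, adjusted p = 0.0748), and that of Btg2 without the WT male (−0.14, 0.859), the NLGF female (0.231) or the NLGF male (0.438), while Btg2 was −1.003 without the WT female. Atf3 was 3.06 ± 0.71 (edgeR adjusted p = 0.00942), from 18 and 15 UMIs in the NLGF Müller libraries, against 1 and 2 in the WT ones, and its call was lost without the NLGF female (0.252), the WT female (0.0642) or the WT male (0.132). In microglia relative to rods Fosb was −3.08 ± 0.69 (edgeR adjusted p = 0.0269), on 12 to 30 cells per library, and it no longer passed without the NLGF female (0.256) or either WT library (adjusted p = 1 each). The Nr1d1 call was lost without either NLGF library or the WT male.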

How the results depend on the processing

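The count of members called in Müller glia, 1, was 0 with DESeq2 or in thinned counts, 2 with no filter on low counts or with doublets kept, 3 with sex as a block, and 0 to 3 with each library left out in turn. The count in cone bipolar cells and that in Müller glia against rods were each 0 to 1 with each library left out. In the other classes the count stayed at 0 under every alternative run. The share of all genes called in each alternative is not given beside these counts. Nr1d1 in Müller glia passed with no filter, with sex as a block, with doublets kept and without the WT female (edgeR adjusted p = 0.0366, 0.0235, 0.0292 and 0.0482), and Bhlhe41 with sex as a block (0.0442), with a mitochondrial limit of 10% (0.0191) and without the WT female (0.0045). With Arntl, Clock and Npas2 averaged, the phase index difference was −0.43 in rods, −0.18 in amacrine cells and, with its sign turned, −0.098 in Müller glia, and with at least 50 UMIs it was −0.029 in cones. With each library left out it ran from −0.15 to 0.38 in Müller glia, −0.25 to −0.12 in rod bipolar, −0.14 to 0.092 in cone bipolar and −0.077 to 0.036 in amacrine cells, −0.029 to 0.13 in cones and −0.22 to −0.016 in rods. Sex was the 1 block that could be fitted, since the labels give no animal or litter shared between the genotypes. Some uncalled values changed sign under some settings, and the cause was not tested. Not all of them were near 0, as with Ciart in rods (−0.32 in the main fit). With a mitochondrial limit of 10%, Dbp was 0.038 in rod bipolar cells and 0.0034 in rods, Per1 in cones −0.35, Tef in cones −0.040, Per3 in rods −0.052, Bhlhe41 0.0097 in rod bipolar and 0.017 in cone bipolar cells, and in Müller glia Per3 was −0.0076, Ciart 0.044 and Tef −0.042. With doublets kept, Per1 in cones was −0.0053, Nr1d1 in amacrine cells −0.0054 and Ciart in Müller glia 0.0034. In thinned counts, Per1, Per2 and Nr1d1 in amacrine cells were −0.0027, −0.022 and −0.015, Ciart in Müller glia 0.084 and Bhlhe41 in cone bipolar cells 0.0025. Ciart was 0.0095 in Müller glia with at least 2000 UMIs, Per2 in cone bipolar cells 0.010 with DESeq2 and 0.31 with clock genes out of the variable genes, and Tef in cones −0.00084 with no filter. Without the Malat1-poor rod cluster, which had most UMIs per cell (a setting chosen after seeing the data), Per1 in rods was −0.033, Per3 −0.17 and Tef −0.0033. With each library left out, values crossed 0 in Müller glia for Per2 (−0.073 to 0.19), Per3 (−0.0071 to 0.073), Ciart (−0.15 to 0.13), Arntl (−0.20 to 0.41) and Tef (−0.055 to 0.15). Against rods they did so for Per2 (−1.11 to 0.023), Per3 (−0.089 to 0.074), Arntl (−0.31 to 0.23) and Tef (−0.12 to 0.092). In rod bipolar cells this held for Per2 (−0.19 to 0.39), Nr1d2 (−0.0096 to 0.13), Ciart (−0.16 to 0.23), Tef (−0.016 to 0.027) and Bhlhe41 (−0.13 to 0.020). In cone bipolar cells it held for Dbp (−0.090 to 0.0076), Per2 (−0.43 to 0.41), Ciart (−0.13 to 0.24), Arntl (−0.052 to 0.21), Tef (−0.11 to 0.17) and Bhlhe41 (−0.049 to 0.026). Amacrine cells had Dbp (−0.024 to 0.14), Per1 (−0.0088 to 0.43), Per2 (−0.38 to 0.84), Per3 (−0.034 to 0.30) and Nr1d1 (−0.049 to 0.065). Cones had Dbp (−0.15 to 0.30), Per1 (−0.12 to 0.38) and Tef (−0.017 to 0.050), and rods Dbp (−0.13 to 0.041), Per3 (−0.0092 to 0.089), Nr1d1 (−0.31 to 0.0023) and Ciart (−0.80 to 0.074). Over all cells the range was Dbp (−0.020 to 0.051) and Ciart (−0.13 to 0.011). Of 78 member values 41 kept their sign in every alternative. Microglia and endothelial cells, with 12 to 30 cells per library, limit what these classes can show.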
